A study of Mus musculus with 32 samples.

Results

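Nfe2l2, the gene for the transcription factor NRF2, and 9 antioxidant genes that NRF2 is known to drive were followed in mouse bone marrow-derived macrophages on 1-colour Agilent expression arrays. The members were taken by gene name from the array annotation: Nfe2l2, Slc7a11, Gclc, Gclm, Gsr, Txnrd1, Srxn1, Prdx1, Hmox1 and Nqo1. They carry 13 of the 33140 probes that have a gene symbol, and all 10 are among the 16037 genes left by the filter on dim probes. Each gene was read from its brightest probe.

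The study asked how macrophages respond when LPS or type I interferon is combined with a caspase inhibitor, which lets the RIPK1-dependent necrosome form. WT cells came from C57BL/6 mice, and Ifnar1-/- cells from knockout mice that lack a chain of the type I interferon receptor. In both genotypes macrophages were grown from marrow with M-CSF, and each genotype had 8 groups of 2 arrays, collected at 6 h. Cells were left untreated or given zVAD (a caspase inhibitor) alone, LPS (a bacterial ligand of TLR4) alone, IFNβ alone, or LPS or IFNβ combined with zVAD. Each of those combinations was also run with Nec-1, an inhibitor of the kinase RIPK1 (written LPS+zVAD+Nec-1, for example). Per the labels the LPS dose was 100 ng/mL and the IFNβ dose 1000 U/mL, while the study's methods give others. Neither labels nor methods say that the 2 arrays of a group came from separate cultures or mice, so the p-values measure the spread between these arrays, which may be technical.

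NRF2 is held by KEAP1, an adaptor that sends it for degradation. Oxidants and electrophiles modify KEAP1, NRF2 then builds up in the nucleus, pairs with a small MAF protein and binds antioxidant response elements near its targets, where BACH1 acts as a competing repressor. In macrophages the pathway is known for buffering the oxidants that the cells make and for restraining inflammatory genes. Because NRF2 is controlled largely through the stability of its protein, Nfe2l2 mRNA is not a measure of NRF2 activity.

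The 9 targets fall into 3 groups by role. Slc7a11 (the cystine importer xCT), Gclc and Gclm (the catalytic and modifier subunits of glutamate-cysteine ligase) and Gsr (glutathione reductase) supply and recycle glutathione. Txnrd1 (thioredoxin reductase 1), Srxn1 (sulfiredoxin, which repairs overoxidised peroxiredoxins) and Prdx1 (peroxiredoxin 1) belong to the thioredoxin system. Hmox1 (haem oxygenase 1) breaks down haem, and Nqo1 reduces quinones.

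Levels are log2 intensities after quantile normalization, so a difference of 1 is a 2-fold change, and levels of different probes are not comparable. A gene was called where the adjusted p of limma (Benjamini-Hochberg over all genes tested) was below 0.05. An error after a change is its standard error (SE) for 2 arrays against 2, from the fit of all 32 arrays. After a difference between the genotypes' changes the error is the SE of that difference, from the treated and untreated arrays of both genotypes. The RNA is from whole cultures, so fewer responding cells and less RNA per cell cannot be told apart.

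Each of the 4 slides held the 8 treatments of 1 genotype and 1 replicate number, so genotype and slide cannot be told apart wherever levels of the genotypes are set against each other. Treated and untreated arrays of a genotype shared slides, but the main fit did not pair arrays by slide. The slide as a block was an alternative, named where it is given. The 2 Ifnar1-/- LPS+zVAD+Nec-1 arrays stood apart from each other. They correlated at r = 0.947 with 3739 genes over 2-fold apart, against r = 0.973 to 0.991 and 581 to 2160 genes in the other 15 groups. The array labelled Ifnar1-/- LPS+zVAD+Nec-1 replicate 2 was most like Ifnar1-/- IFNβ+zVAD+Nec-1 replicate 2 (r = 0.993), and its Tnf level was 9.99. Replicate 1 had Tnf at 15.92, the untreated Ifnar1-/- arrays at 9.88 and 10.13 and those with LPS alone at 17.51 and 17.66. Tests of this group are therefore given with and without that array. The main fit uses 1 estimate of a gene's spread for all groups, so this pair also enters tests of other groups. Without both of its arrays, 14 of 280 pairs of gene and comparison gained a call and 0 lost one.

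Of 3 Ifnar1 probes, 2 were lower on all 16 Ifnar1-/- arrays (5.82 to 7.35 and 7.29 to 8.73) than on all 16 WT arrays (7.88 to 10.2 and 9.94 to 11.9). The brightest overlapped (11.2 to 12.4 in Ifnar1-/-, 9.02 to 14.8 in WT). Where the probes lie relative to the deleted part is not given in the sources used here, so they check the genotype labels only in part. All 10 macrophage markers on the array, Csf1r, Cd68 and Lyz2 among them, were well above background on all 32 arrays. So were 7 of 8 neutrophil, 2 of 5 T cell, 2 of 5 B cell, 3 of 6 dendritic cell, 1 of 5 erythroid, 4 of 7 stromal and 0 of 4 epithelial markers. The part of such cells in the results was not tested.

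The promoter sequences are shown because NRF2 is known to bind a defined element near the genes it drives. RefSeq windows of 300 bases (GRCm38.p6, 250 before to 50 after the transcription start) were found for 7 of the 10 members, 9 windows in all because Txnrd1 has 3. The ARE core TGACNNNGC was searched on both strands together with the AP-1 element TGANTCA, which overlaps it in part of its matches. The core is in 12.4% of all 32851 windows and in 5 of the 9 member windows, and the AP-1 letters are in 7.81% of all windows and in 2 of the 9. The 5 windows with the core are Nfe2l2 (chr2:75704614-75704913, minus strand), Gclm (chr3:122245307-122245606, plus strand), Txnrd1 (chr10:82858956-82859255, plus strand), Srxn1 (chr2:152105274-152105573, plus strand) and Prdx1 (chr4:116685349-116685648, plus strand). They are printed 5′ to 3′ on the gene's strand, with letters matched by either motif in capitals.
Nfe2l2: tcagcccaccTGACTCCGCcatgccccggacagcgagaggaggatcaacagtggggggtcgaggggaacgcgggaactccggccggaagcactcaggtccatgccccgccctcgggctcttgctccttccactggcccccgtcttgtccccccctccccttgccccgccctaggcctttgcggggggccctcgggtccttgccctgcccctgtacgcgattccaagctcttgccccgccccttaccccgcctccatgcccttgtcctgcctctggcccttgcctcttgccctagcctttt
Gclm: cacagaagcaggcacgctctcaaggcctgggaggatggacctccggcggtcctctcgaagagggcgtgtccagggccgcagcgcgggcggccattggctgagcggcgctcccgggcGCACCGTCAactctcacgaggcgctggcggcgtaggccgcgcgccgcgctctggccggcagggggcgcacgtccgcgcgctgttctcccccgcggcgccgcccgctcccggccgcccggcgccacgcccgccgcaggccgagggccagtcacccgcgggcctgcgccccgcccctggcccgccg
Txnrd1: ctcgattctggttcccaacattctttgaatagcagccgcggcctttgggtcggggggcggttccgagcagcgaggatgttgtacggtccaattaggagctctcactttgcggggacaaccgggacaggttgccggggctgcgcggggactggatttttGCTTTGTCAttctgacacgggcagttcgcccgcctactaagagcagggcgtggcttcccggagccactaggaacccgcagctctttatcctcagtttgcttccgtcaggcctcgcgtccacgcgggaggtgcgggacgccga
Srxn1: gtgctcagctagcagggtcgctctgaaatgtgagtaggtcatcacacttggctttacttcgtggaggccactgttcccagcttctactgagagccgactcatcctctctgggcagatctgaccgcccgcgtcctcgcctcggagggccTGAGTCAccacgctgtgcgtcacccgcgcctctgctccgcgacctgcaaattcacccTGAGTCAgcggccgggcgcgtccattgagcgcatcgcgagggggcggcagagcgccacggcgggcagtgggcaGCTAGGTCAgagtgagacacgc
Prdx1: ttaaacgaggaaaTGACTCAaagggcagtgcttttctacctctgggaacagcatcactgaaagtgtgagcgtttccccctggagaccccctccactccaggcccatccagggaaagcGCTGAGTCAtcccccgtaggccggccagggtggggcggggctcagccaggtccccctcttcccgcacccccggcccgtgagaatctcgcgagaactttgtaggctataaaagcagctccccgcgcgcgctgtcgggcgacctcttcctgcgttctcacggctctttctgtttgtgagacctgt

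The core lies 240 bases before the start in Nfe2l2, 134 in Gclm, 133 in Prdx1 and 92 in Txnrd1. In Srxn1 it lies 28 bases after the start. In Prdx1 the core and an AP-1 match overlap, and Prdx1 and Srxn1 are the members with AP-1 letters. No match was found in the windows of Nqo1 and Slc7a11 or in the other Txnrd1 windows, which says only that these letters are not in those windows. A match is a description of the sequence, not evidence of binding.

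Slc7a11 covered the widest range of the 10 genes and Prdx1 the narrowest. Mean Slc7a11 ran from 4.38 in untreated WT cells to 13.5 in Ifnar1-/- cells with LPS, a span of 9.11, and mean Prdx1 from 16.9 to 18.2, a span of 1.32. Of the 10 genes, 7 had their lowest mean in WT cells with IFNβ (Gclc, Gclm, Gsr, Txnrd1, Srxn1, Hmox1 and Nqo1), and 6 had their highest in Ifnar1-/- cells with LPS+zVAD (Gclc, Txnrd1, Srxn1, Prdx1, Hmox1 and Nqo1). Gclm, Gsr and Slc7a11 were highest in Ifnar1-/- cells with LPS. How many of all genes had these groups as their lowest or highest was not counted, so the counts are not particular to the members. With IFNβ in WT cells 3467 genes were called lower and 2195 higher. The order of groups also sets levels of different slides against each other. Nfe2l2 differed from its targets, with its highest mean in WT cells with IFNβ+zVAD. For Gclm, the Ifnar1-/- groups with LPS (13.55 and 13.76), LPS+zVAD (13.29 and 13.31) and LPS+zVAD+Nec-1 (13.87 and 12.61) had the highest means. The LPS+zVAD+Nec-1 arrays lay on either side of the others, and both LPS arrays lay above both LPS+zVAD arrays, a difference that was not called.

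**Figure D1:**
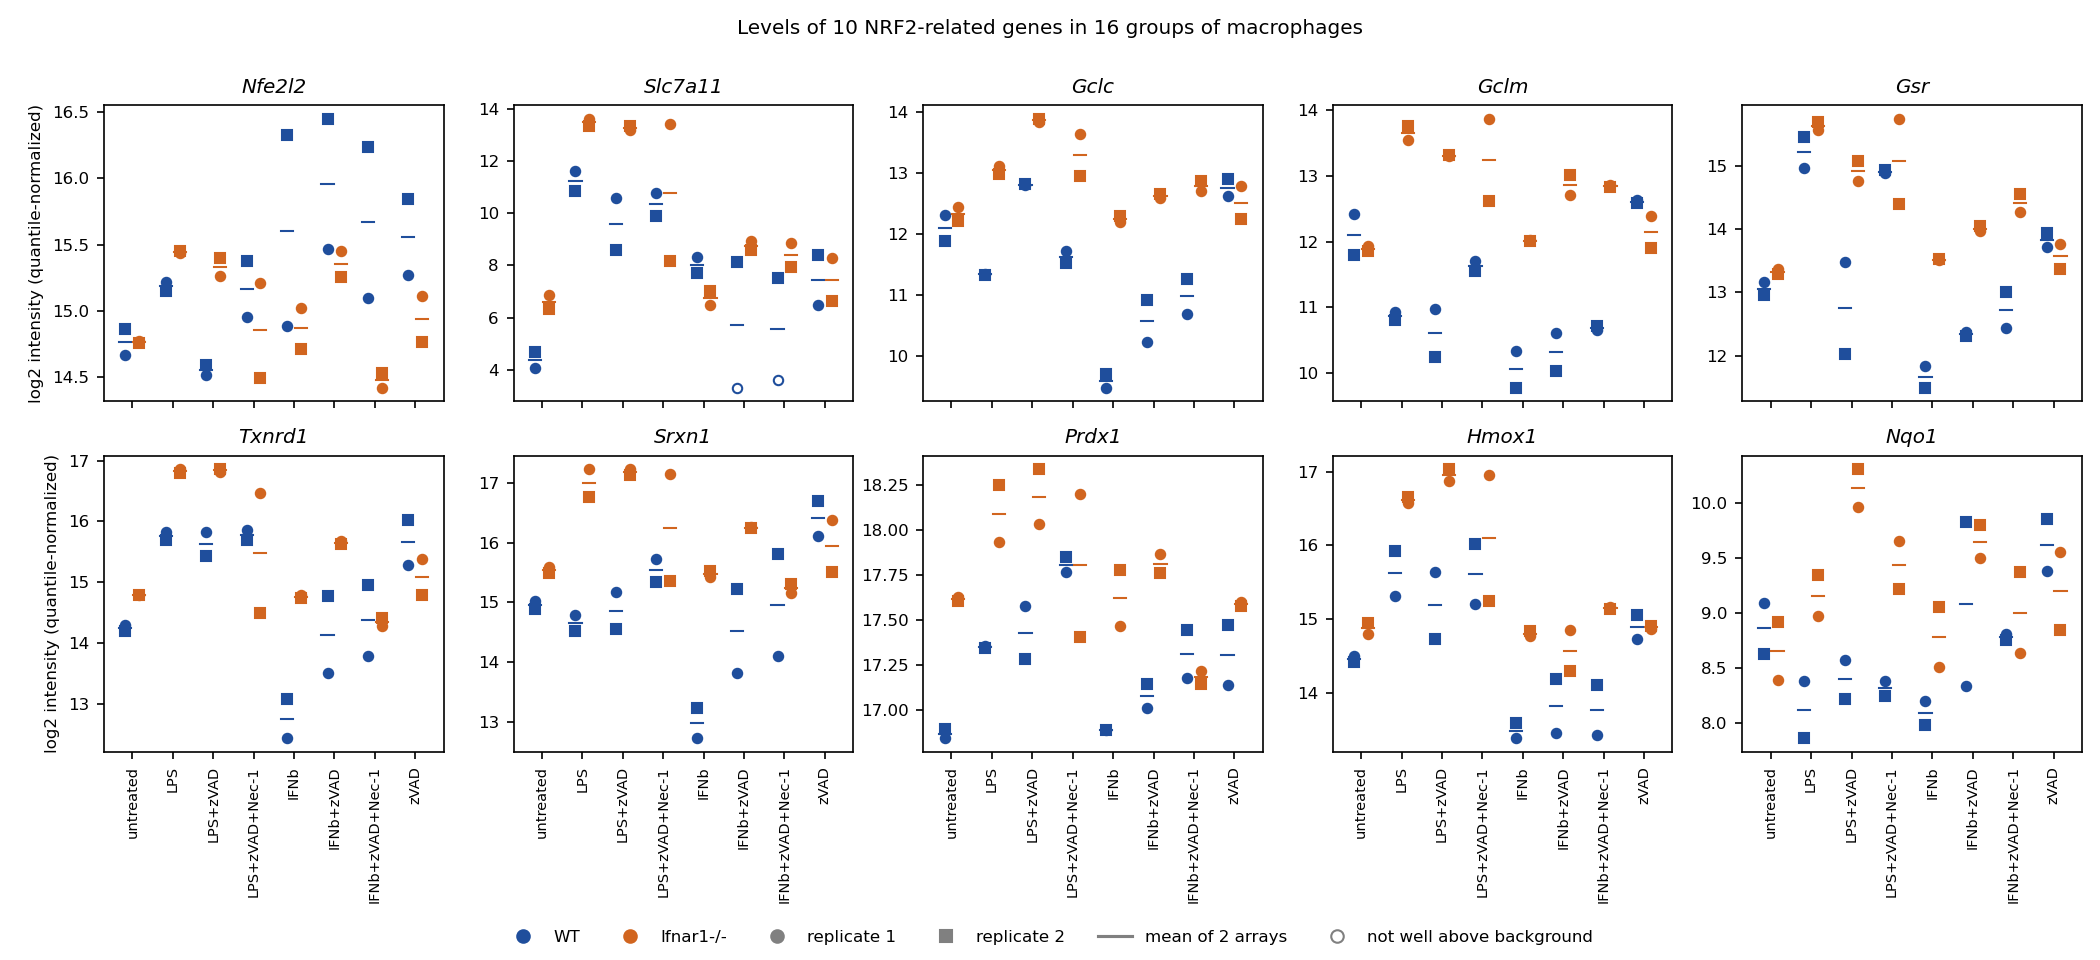
Level of each of the 10 genes (y axis, log2 normalized intensity) in the 8 treatments (x axis, IFNb is IFNβ) for WT and Ifnar1-/- cells. Circles are replicate 1, squares replicate 2, short lines the mean of the 2 arrays, and open symbols were not well above background. Gclc and Gclm part between the genotypes under LPS and IFNβ, and Slc7a11 rises from 4.06 and 4.69 in untreated WT cells to 11.60 and 10.85 with LPS.

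LPS raised Slc7a11, Gsr, Txnrd1 and Hmox1 in both genotypes, but moved both subunits of glutamate-cysteine ligase in opposite directions in the 2 genotypes. Gclc and Gclm fell in WT cells and rose in Ifnar1-/- cells. In WT cells 6 of the 10 members were called (4 higher, 2 lower), beside 41.2% of all genes, and in Ifnar1-/- cells 6, all higher, beside 24.8% called in either direction and 10.9% called higher. Both Ifnar1-/- LPS arrays lay above both untreated arrays for all 10 members, beside 29.3% of all genes. In WT cells the share of all calls that were higher was 39.6%, and 50.2% with each array scaled to its 75th percentile, with which 5 members were higher (Prdx1 added, 0.96, adjusted p = 0.0106) and 1 lower (Gclm). The median change of the 10 was 1.60 in Ifnar1-/- cells, beside -0.06 over all genes, and in WT cells it was 0.45, beside -0.08.

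Slc7a11 measured 4.06 and 4.69 in untreated WT cells and 11.60 and 10.85 with LPS. Ifnar1-/- cells had 6.88 and 6.32 untreated and 13.62 and 13.36 with LPS. The cystine importer thus moved from a low to a high signal on both slides of each genotype, by 6.85 ± 1.47 in WT (adjusted p = 0.00102) and 6.89 ± 1.47 in Ifnar1-/- cells (adjusted p = 0.00215). Gsr rose from 13.16 and 12.96 to 14.97 and 15.45 in WT cells, and from 13.37 and 13.28 to 15.56 and 15.69 in Ifnar1-/- cells. The change of Gsr was 2.15 ± 0.38 (adjusted p = 0.00019) and 2.30 ± 0.38 (adjusted p = 0.000331), and these 4 calls of Slc7a11 and Gsr held with any single array left out.

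Gclm measured 12.41 and 11.79 in untreated WT cells and 10.93 and 10.81 with LPS, a change of -1.23 ± 0.33 (adjusted p = 0.00508). Its Ifnar1-/- arrays measured 11.93 and 11.85 untreated and 13.55 and 13.76 with LPS, a change of 1.76 ± 0.33 (adjusted p = 0.000724). The arrays with and without LPS did not overlap in either genotype, and the sign was opposite. Gclc measured 12.31 and 11.90 in untreated WT cells and 11.35 and 11.34 with LPS (-0.76 ± 0.26, adjusted p = 0.0232). In Ifnar1-/- cells it went from 12.45 and 12.22 to 13.12 and 13.00 (0.72 ± 0.26, adjusted p = 0.0467). The difference between the genotypes' changes was 2.99 ± 0.46 for Gclm (adjusted p = 0.000594) and 1.49 ± 0.36 for Gclc (adjusted p = 0.0172). These were the 2 of 10 members called in that test, beside 6.63% of all genes. The Gclm difference held with any array left out. Without WT untreated replicate 1 the WT change was -0.92 for Gclm (adjusted p = 0.0798) and -0.56 for Gclc (adjusted p = 0.19), and the difference for Gclc was 1.28 (adjusted p = 0.09). Each Gclc call also ended in fits without other arrays: the WT change without either WT LPS array (adjusted p = 0.0838 and 0.0758), the Ifnar1-/- change without any 1 of its 4 arrays (0.0891 to 0.237) or with the authors' normalized values (0.0523), and the difference without Ifnar1-/- untreated replicate 2, WT LPS replicate 1 or Ifnar1-/- LPS replicate 1 (0.0613 to 0.0721).

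Among the thioredoxin and haem genes, Txnrd1 and Hmox1 rose with LPS in both genotypes. Txnrd1 went from 14.30 and 14.20 to 15.82 and 15.69 in WT cells (1.51 ± 0.49, adjusted p = 0.0178) and from 14.80 and 14.80 to 16.86 and 16.79 in Ifnar1-/- cells (2.03 ± 0.49, adjusted p = 0.00479). Hmox1 went from 14.51 and 14.43 to 15.32 and 15.93 in WT cells (1.16 ± 0.43, adjusted p = 0.0363) and from 14.80 and 14.95 to 16.57 and 16.65 in Ifnar1-/- cells (1.73 ± 0.43, adjusted p = 0.00571). The arrays did not overlap in any of these 4 comparisons, and no difference between the genotypes' changes was called for either gene. Srxn1 measured 15.59 and 15.50 in untreated Ifnar1-/- cells and 17.24 and 16.77 with LPS, a change of 1.46 ± 0.54 that was not called (adjusted p = 0.0557) but was with the slide as a block (adjusted p = 0.0305). In WT cells its arrays with LPS lay below both untreated arrays, and the change of -0.30 was not called (adjusted p = 0.713). Prdx1 (0.48 and 0.47), Nfe2l2 (0.42 and 0.68) and Nqo1 (-0.74 and 0.50, WT and Ifnar1-/-) were not called. Without both Ifnar1-/- LPS+zVAD+Nec-1 arrays Prdx1 was called in WT (adjusted p = 0.0234) and Ifnar1-/- cells (0.037), and Srxn1 in Ifnar1-/- cells (0.0245). The WT call of Hmox1 ended without WT LPS replicate 2 (0.85, adjusted p = 0.223) or without either untreated array (adjusted p = 0.0976 and 0.133), and that of Txnrd1 without any 1 of its 4 arrays (adjusted p = 0.0517 to 0.0854).

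IFNβ lowered Gclc, Gclm, Gsr, Txnrd1 and Srxn1 in WT cells, and none of the 10 members was called in cells without the receptor. In WT cells 5 of 10 members were called, all lower, beside 35.3% of all genes called and 21.6% called lower. Scaling arrays to their 75th percentile moved the share of all calls that were higher from 38.8% to 50.1%, and with that scaling 4 members were lower and 1, Nfe2l2, was higher (1.37, adjusted p = 0.0234). Among Ifnar1-/- cells limma called 0 members, beside 0 (0%) of all genes, of which 253 had an unadjusted p below 0.05, and the 10 changes lay between -0.08 and 0.19.

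Gclc fell from 12.31 and 11.90 to 9.48 and 9.71 (-2.51 ± 0.26, adjusted p = 5.44e-07). Gclm fell from 12.41 and 11.79 to 10.34 and 9.78 (-2.05 ± 0.33, adjusted p = 8.39e-05). The IFNβ arrays lay below both untreated arrays for both subunits, and the calls held with any array left out. With IFNβ in Ifnar1-/- cells, Gclc measured 12.20 and 12.31 (a change of -0.08) and Gclm 12.02 and 12.01 (0.12), close to the untreated arrays. The differences between the genotypes' changes were 2.43 ± 0.36 for Gclc (adjusted p = 0.000117) and 2.17 ± 0.46 for Gclm (adjusted p = 0.00281), and both held with any array left out.

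Srxn1 fell from 15.03 and 14.89 to 12.72 and 13.24 in WT cells (-1.98 ± 0.54, adjusted p = 0.00752), Txnrd1 from 14.30 and 14.20 to 12.44 and 13.08 (-1.49 ± 0.49, adjusted p = 0.0225) and Gsr from 13.16 and 12.96 to 11.84 and 11.49 (-1.39 ± 0.38, adjusted p = 0.008). The IFNβ arrays lay below both untreated arrays for all 3. For Gsr the difference between the genotypes' changes was 1.58 ± 0.54 (adjusted p = 0.048), which makes 3 of 10 members called there, beside 18.8% of all genes. That of Srxn1 was 1.91 ± 0.76 (adjusted p = 0.0895, and 0.0483 with the slide as a block). Hmox1 measured 13.39 and 13.60 with IFNβ, a change of -0.97 that was not called (adjusted p = 0.0858). It was called with only the groups compared in the fit (adjusted p = 0.032) and without both Ifnar1-/- LPS+zVAD+Nec-1 arrays (0.0247). For Slc7a11 (8.31 and 7.69, a change of 3.63 ± 1.47, adjusted p = 0.0637, and 0.0423 with the slide as a block) and Nfe2l2 (0.84) both IFNβ arrays lay above both untreated arrays, and Prdx1 was at 0.02. Calls ended for Srxn1 without WT IFNβ replicate 1 (-1.72, adjusted p = 0.0691) and with the authors' normalized values (adjusted p = 0.12), for Gsr without WT untreated replicate 1 (adjusted p = 0.0554) or WT IFNβ replicate 2 (adjusted p = 0.0652), and for Txnrd1 without either untreated array (adjusted p = 0.0937 and 0.078) or WT IFNβ replicate 1 (-1.17, adjusted p = 0.169). Txnrd1 was also not called with 75th percentile scaling (-1.14, adjusted p = 0.106) or the authors' values (adjusted p = 0.0532). The Gsr difference was lost without any 1 of its 8 arrays (adjusted p = 0.0681 to 0.135) and with 75th percentile scaling (adjusted p = 0.114).

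**Figure D2:**
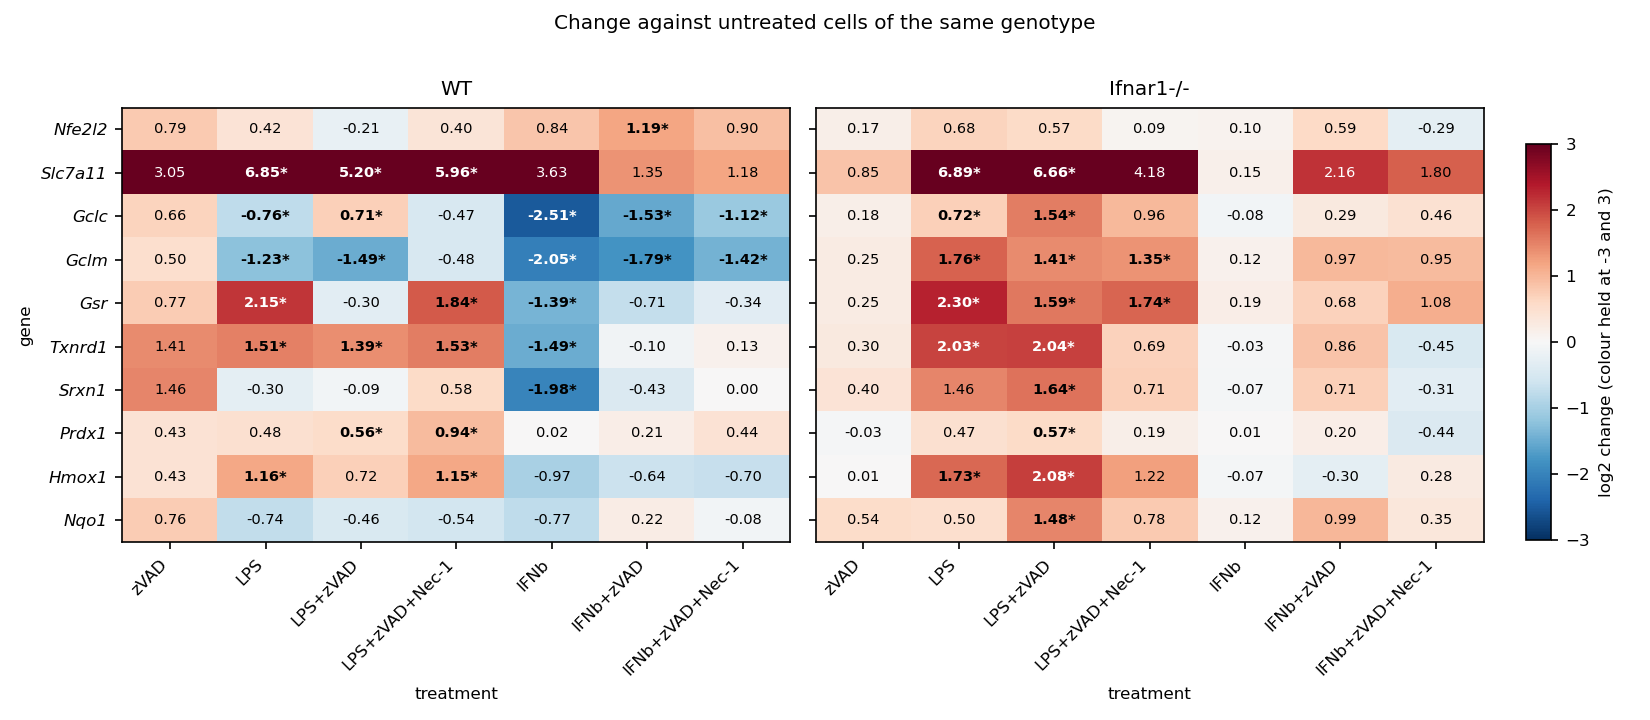
Change of each gene (rows) against untreated cells of the same genotype for the 7 treatments (columns, IFNb is IFNβ), in log2 units, with the colour held at 3 and -3. Asterisks mark genes called at an adjusted p below 0.05 by limma. The Ifnar1-/- IFNβ column is close to 0 throughout (-0.08 to 0.19), while the Ifnar1-/- LPS+zVAD column has 9 called rises.

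With zVAD alone no member was called in either genotype. In WT cells both zVAD arrays lay above both untreated arrays for all 10 members, beside 18.7% of all genes. The changes ran from 0.43 to 3.05 with a median of 0.76, beside -0.03 over all genes. Called members numbered 0, beside 0.00624% (1 gene) of all genes, of which 901 had an unadjusted p below 0.05. Srxn1 measured 16.12 and 16.71 with zVAD, against 15.03 and 14.89 in untreated WT cells (1.46 ± 0.54, adjusted p = 0.696). Txnrd1 measured 15.29 and 16.03, against 14.30 and 14.20 (1.41 ± 0.49, adjusted p = 0.652). The changes in Ifnar1-/- cells ran from -0.03 to 0.85, and 0 members were called, beside 0% of all genes, of which 61 had an unadjusted p below 0.05. The difference between the genotypes was called for 0 members, beside 0% of all genes, of which 163 had an unadjusted p below 0.05.

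LPS+zVAD raised nearly the whole set in Ifnar1-/- cells and a part of it in WT cells. Of 10 members 9 rose in Ifnar1-/- cells, all but Nfe2l2, beside 28.2% of all genes called and 11% called higher. In WT cells 4 rose (Slc7a11, Txnrd1, Gclc and Prdx1) and Gclm fell, 5 of 10 in all, beside 50.9% of all genes. Both Ifnar1-/- arrays lay above both untreated arrays for all 10 members, beside 28.8% of all genes.

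In Ifnar1-/- cells Hmox1 measured 16.88 and 17.03, against 14.80 and 14.95 untreated (2.08 ± 0.43, adjusted p = 0.00142). Nqo1 measured 9.96 and 10.31, against 8.39 and 8.92 (1.48 ± 0.39, adjusted p = 0.00839). These haem and quinone enzymes were not called in WT cells with LPS+zVAD, where Hmox1 measured 15.64 and 14.74 (0.72, adjusted p = 0.17) and Nqo1 8.58 and 8.23 (-0.46). Hmox1 was called there with 75th percentile scaling (1.54, adjusted p = 0.00768). The thioredoxin genes of Ifnar1-/- cells rose by 2.04 ± 0.49 for Txnrd1 (adjusted p = 0.00409), 1.64 ± 0.54 for Srxn1 (adjusted p = 0.0287) and 0.57 ± 0.21 for Prdx1 (adjusted p = 0.0495). Among the glutathione genes Slc7a11 rose by 6.66 ± 1.47 (adjusted p = 0.00244), Gsr by 1.59 ± 0.38 (adjusted p = 0.00446), Gclc by 1.54 ± 0.26 (adjusted p = 0.000284) and Gclm by 1.41 ± 0.33 (adjusted p = 0.00335). The calls of Slc7a11, Gsr, Gclc, Gclm, Txnrd1 and Hmox1 held with any array left out. Those of Srxn1 and Prdx1 ended without any 1 of their 4 arrays (adjusted p = 0.0892 to 0.13 and 0.0667 to 0.283) or with the authors' normalized values (0.277 and 0.446), and that of Nqo1 without Ifnar1-/- untreated replicate 1 (1.21, adjusted p = 0.0881) or Ifnar1-/- LPS+zVAD replicate 2 (adjusted p = 0.0693).

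In WT cells with LPS+zVAD Gclm measured 10.97 and 10.25 (-1.49 ± 0.33, adjusted p = 0.000795) and Gclc 12.81 and 12.83 (0.71 ± 0.26, adjusted p = 0.0265), so the subunits moved apart. Slc7a11 measured 10.59 and 8.57 (5.20 ± 1.47, adjusted p = 0.00611), Txnrd1 15.83 and 15.44 (1.39 ± 0.49, adjusted p = 0.0227) and Prdx1 17.58 and 17.28 (0.56 ± 0.21, adjusted p = 0.032). The fall of Gclm was the call that held with any array left out. Without WT LPS+zVAD replicate 1, Slc7a11 was at 4.19 (adjusted p = 0.0686), Txnrd1 at 1.19 (adjusted p = 0.123) and Prdx1 at 0.41 (adjusted p = 0.204), and without replicate 2 Slc7a11 was at 6.21 (adjusted p = 0.0103). Without WT untreated replicate 2, Gclc was at 0.51 (adjusted p = 0.221). Gclc was also lost without either LPS+zVAD array (adjusted p = 0.0776 and 0.0892), and Txnrd1 (0.0652 and 0.0919) and Prdx1 (0.112 and 0.0871) without either untreated array.

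The difference between the genotypes' changes with LPS+zVAD was called for Gclm (2.90 ± 0.46, adjusted p = 0.000338), Nqo1 (1.94 ± 0.55, adjusted p = 0.0215) and Gsr (1.89 ± 0.54, adjusted p = 0.0215), 3 of 10 members beside 16.1% of all genes. The Gclm difference held with any array left out. The Gsr difference was 1.17 without WT LPS+zVAD replicate 2 (adjusted p = 0.144) and 2.62 without replicate 1 (adjusted p = 0.00117), and was lost without WT untreated replicate 1, either untreated Ifnar1-/- array or Ifnar1-/- LPS+zVAD replicate 2 (adjusted p = 0.059 to 0.0917). The Nqo1 difference was lost without replicate 1 of untreated WT or untreated Ifnar1-/- cells, or replicate 2 of WT or Ifnar1-/- LPS+zVAD cells (1.67 to 1.76, adjusted p = 0.084 to 0.103).

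Adding zVAD to LPS changed 2 members in WT cells, both of the glutathione group and in opposite directions, beside 34.6% of all genes. Gclc went from 11.35 and 11.34 with LPS to 12.81 and 12.83 with LPS+zVAD (1.48 ± 0.26, adjusted p = 0.000203). Gsr went from 14.97 and 15.45 to 13.48 and 12.03 (-2.45 ± 0.38, adjusted p = 6.93e-05). The arrays did not overlap for either gene, and both calls held with any array left out, although Gsr was at -3.18 without WT LPS+zVAD replicate 1 and at -1.73 without replicate 2. The same step in Ifnar1-/- cells gave 0 called members, beside 8.25% of all genes, of which 3489 had an unadjusted p below 0.05. Gclc went from 13.12 and 13.00 to 13.85 and 13.90 there (0.81 ± 0.26, adjusted p = 0.0574, and 0.0251 with the slide as a block).

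Adding Nec-1 to LPS+zVAD moved Gclc and Gsr the opposite way in WT cells, and raised Gclm, 3 of 10 members beside 28.5% of all genes. Gclc went to 11.73 and 11.53 (-1.19 ± 0.26, adjusted p = 0.00175), close to its values with LPS alone. Gsr went to 14.88 and 14.92 (2.15 ± 0.38, adjusted p = 0.000335), just below its values with LPS alone. Gclm went from 10.97 and 10.25 to 11.71 and 11.54 (1.01 ± 0.33, adjusted p = 0.025). The comparisons that share the LPS+zVAD arrays are not independent of each other. The Gclc and Gsr calls held with any array left out, with Gsr at 2.87 without WT LPS+zVAD replicate 1 and 1.42 without replicate 2. The Gclm call ended without WT LPS+zVAD replicate 2 (0.65, adjusted p = 0.289) or without either Nec-1 array (adjusted p = 0.118 and 0.0721). With only the 4 arrays compared in the fit, none of the 3 was called (adjusted p = 0.0628 for Gclc, 0.0804 for Gsr and 0.125 for Gclm).

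**Figure D3:**
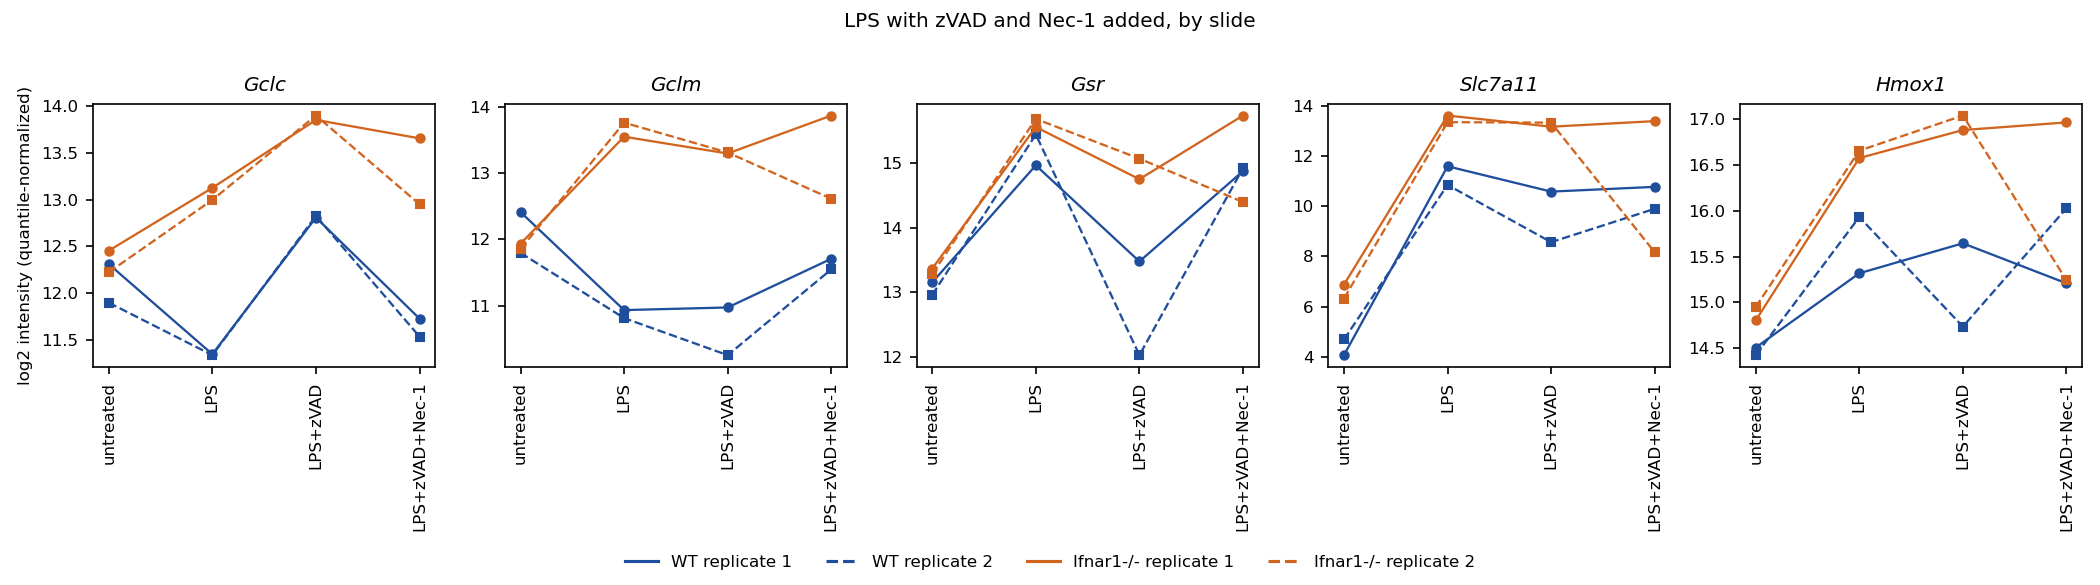
Level (y axis, log2 normalized intensity) of 5 genes along untreated, LPS, LPS+zVAD and LPS+zVAD+Nec-1 (x axis), with a line for each slide, which is a genotype and a replicate number. In WT cells Gclc is higher (12.81 and 12.83) and Gsr lower (13.48 and 12.03) with LPS+zVAD than with LPS alone or with Nec-1 added, and the Ifnar1-/- replicate 2 line drops at the last step.

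Against untreated WT cells, LPS+zVAD+Nec-1 raised 5 members, beside 40.9% of all genes called and 16% called higher. They were Slc7a11 (10.78 and 9.90, a change of 5.96 ± 1.47, adjusted p = 0.00315), Gsr (1.84 ± 0.38, adjusted p = 0.000768), Txnrd1 (1.53 ± 0.49, adjusted p = 0.0165), Hmox1 (1.15 ± 0.43, adjusted p = 0.0377) and Prdx1 (0.94 ± 0.21, adjusted p = 0.00141). The calls of Slc7a11, Gsr and Prdx1 held with any array left out. That of Hmox1 ended without WT LPS+zVAD+Nec-1 replicate 2 (0.74, adjusted p = 0.289) or without either untreated array (adjusted p = 0.1 and 0.136), and that of Txnrd1 without any 1 of its 4 arrays (adjusted p = 0.051 to 0.0818).

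In Ifnar1-/- cells with LPS+zVAD+Nec-1 the arrays disagreed for most members. Slc7a11 measured 13.40 on replicate 1 and 8.17 on the array labelled replicate 2, Hmox1 16.96 and 15.24, and Txnrd1 16.46 and 14.50. On the array labelled replicate 2 Txnrd1 lay below both untreated Ifnar1-/- arrays, and Slc7a11 and Hmox1 lay above them. With both arrays Gclm (1.35 ± 0.33, adjusted p = 0.0473) and Gsr (1.74 ± 0.38, adjusted p = 0.0253) were called, 2 of 10 beside 1.32% of all genes. Without the array labelled replicate 2 they were at 1.98 (adjusted p = 0.000294) and 2.41 (adjusted p = 0.000339), and without replicate 1 at 0.72 (adjusted p = 0.585) and 1.07 (adjusted p = 0.36). Both calls were also lost without either untreated array (adjusted p = 0.182 to 0.277), with 75th percentile scaling (0.0599 and 0.0682) and with only the 4 arrays compared in the fit (0.989 each), and that of Gclm with no filter on dim probes (0.0789). Gclc was at 0.96 (adjusted p = 0.073, and 0.0263 with the slide as a block). Without the array labelled replicate 2, 6 of 10 members were called, all higher, beside 14.7% of all genes, among them Gclc (1.32, adjusted p = 0.00394), Slc7a11 (6.80, adjusted p = 0.00471), Hmox1 (2.08, adjusted p = 0.00152) and Txnrd1 (1.67, adjusted p = 0.0184). Nec-1 added to LPS+zVAD gave 0 called members in Ifnar1-/- cells, beside 18.8% of all genes, of which 5173 had an unadjusted p below 0.05, and Txnrd1 was at -1.35 (adjusted p = 0.059, and 0.0271 with the slide as a block). That Txnrd1 value rests on the array labelled replicate 2, since the change was -0.35 on replicate 1 and -2.35 on the other slide. Without that array Txnrd1 was at -0.37 (adjusted p = 0.713), and 0 members were called, beside 9.1% of all genes. The difference between the genotypes' changes with LPS+zVAD+Nec-1 was called for Gclc (1.44 ± 0.36) and Gclm (1.82 ± 0.46, both adjusted p = 0.00961), 2 of 10 beside 17.8% of all genes. Without the array labelled replicate 2 the same 2 genes were called, beside 13.7% of all genes, and Gclc was at 1.79 (adjusted p = 0.00312). For Gclm it was 2.45 without that array (adjusted p = 0.000568) and 1.20 without replicate 1 (adjusted p = 0.0367), and without WT untreated replicate 1 both were lost (Gclm 1.52, adjusted p = 0.0542, and Gclc 1.23, adjusted p = 0.051). With 75th percentile scaling Gclm was called higher and Prdx1 lower (-1.29, adjusted p = 0.0338), and Gclc was not called (1.21, adjusted p = 0.051). With only the groups compared in the fit, neither difference was called (adjusted p = 0.111 for Gclc and 0.144 for Gclm).

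With IFNβ+zVAD, WT cells again showed lower Gclc and Gclm, and Nfe2l2 was called for the only time in the 31 comparisons. Of 10 members 3 were called, 1 higher and 2 lower, beside 37.5% of all genes. With 75th percentile scaling 2 were higher (Prdx1 added, 0.83, adjusted p = 0.0292) and 2 lower, and the share of all calls that were higher moved from 38.4% to 48.5%. Gclc measured 10.23 and 10.93 (-1.53 ± 0.26, adjusted p = 0.000131) and Gclm 10.60 and 10.03 (-1.79 ± 0.33, adjusted p = 0.000288), all below the untreated arrays, and both held with any array left out. Nfe2l2 measured 15.47 and 16.45, against 14.67 and 14.87 untreated (1.19 ± 0.40, adjusted p = 0.0262). It was at 0.70 and not called with replicate 2 of WT IFNβ+zVAD left out (adjusted p = 0.29), nor was it called with either untreated array left out (adjusted p = 0.118 and 0.0706). IFNβ+zVAD gave 0 called members in Ifnar1-/- cells, beside 0.00624% of all genes, of which 585 had an unadjusted p below 0.05. Gclm measured 12.71 and 13.02 there, above both untreated arrays (0.97), and Slc7a11 8.92 and 8.60 (2.16). The difference between the genotypes' changes was 2.76 ± 0.46 for Gclm (adjusted p = 0.000407) and 1.82 ± 0.36 for Gclc (adjusted p = 0.00177), 2 of 10 members beside 19.3% of all genes, and both held with any array left out.

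zVAD added to IFNβ gave 0 called members in both genotypes, beside 0% of all genes in WT cells and 0.00624% in Ifnar1-/- cells, of which 637 and 370 had an unadjusted p below 0.05. Slc7a11 was not well above background on replicate 1 of WT IFNβ+zVAD (3.30) and of WT IFNβ+zVAD+Nec-1 (3.61), while the other array of each group measured 8.14 and 7.50. The level of Slc7a11 in these groups thus rests on a single measured array each.

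With IFNβ+zVAD+Nec-1, 2 of 10 members were called in WT cells, beside 31.7% of all genes. Gclc measured 10.69 and 11.27 (-1.12 ± 0.26, adjusted p = 0.00249) and Gclm 10.65 and 10.71 (-1.42 ± 0.33, adjusted p = 0.00252). With replicate 1 of WT IFNβ+zVAD+Nec-1 left out Gclc was at -0.84 and not called (adjusted p = 0.0548). With 75th percentile scaling Nfe2l2 (1.31, adjusted p = 0.0329) and Prdx1 (0.89, adjusted p = 0.0234) were called higher as well. The treatment gave 0 called members in Ifnar1-/- cells, beside 1.76% of all genes, of which 1603 had an unadjusted p below 0.05. Adding Nec-1 to IFNβ+zVAD gave 0 called members, beside 0% of all genes in WT cells (613 at an unadjusted p below 0.05) and 1.58% in Ifnar1-/- cells (1593). The difference between the genotypes' changes was called for 3 of 10 members, beside 18.2% of all genes. They were Gclm (2.38 ± 0.46, adjusted p = 0.00142), Gclc (1.58 ± 0.36, adjusted p = 0.00507) and, with the opposite sign, Prdx1 (-0.88 ± 0.30, adjusted p = 0.046). Prdx1 measured 17.22 and 17.14 in these Ifnar1-/- cells against 17.63 and 17.61 untreated, and 17.18 and 17.44 in WT cells against 16.84 and 16.89. The Prdx1 call ended without any 1 of its 8 arrays (adjusted p = 0.0552 to 0.139), with 75th percentile scaling (adjusted p = 0.0546), normexp (0.109), no filter (0.0795), the mean of its probes (0.067) and the authors' normalized values (0.32). Nfe2l2 was at -1.19 (adjusted p = 0.168, and 0.0362 with the slide as a block).

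**Figure D4:**
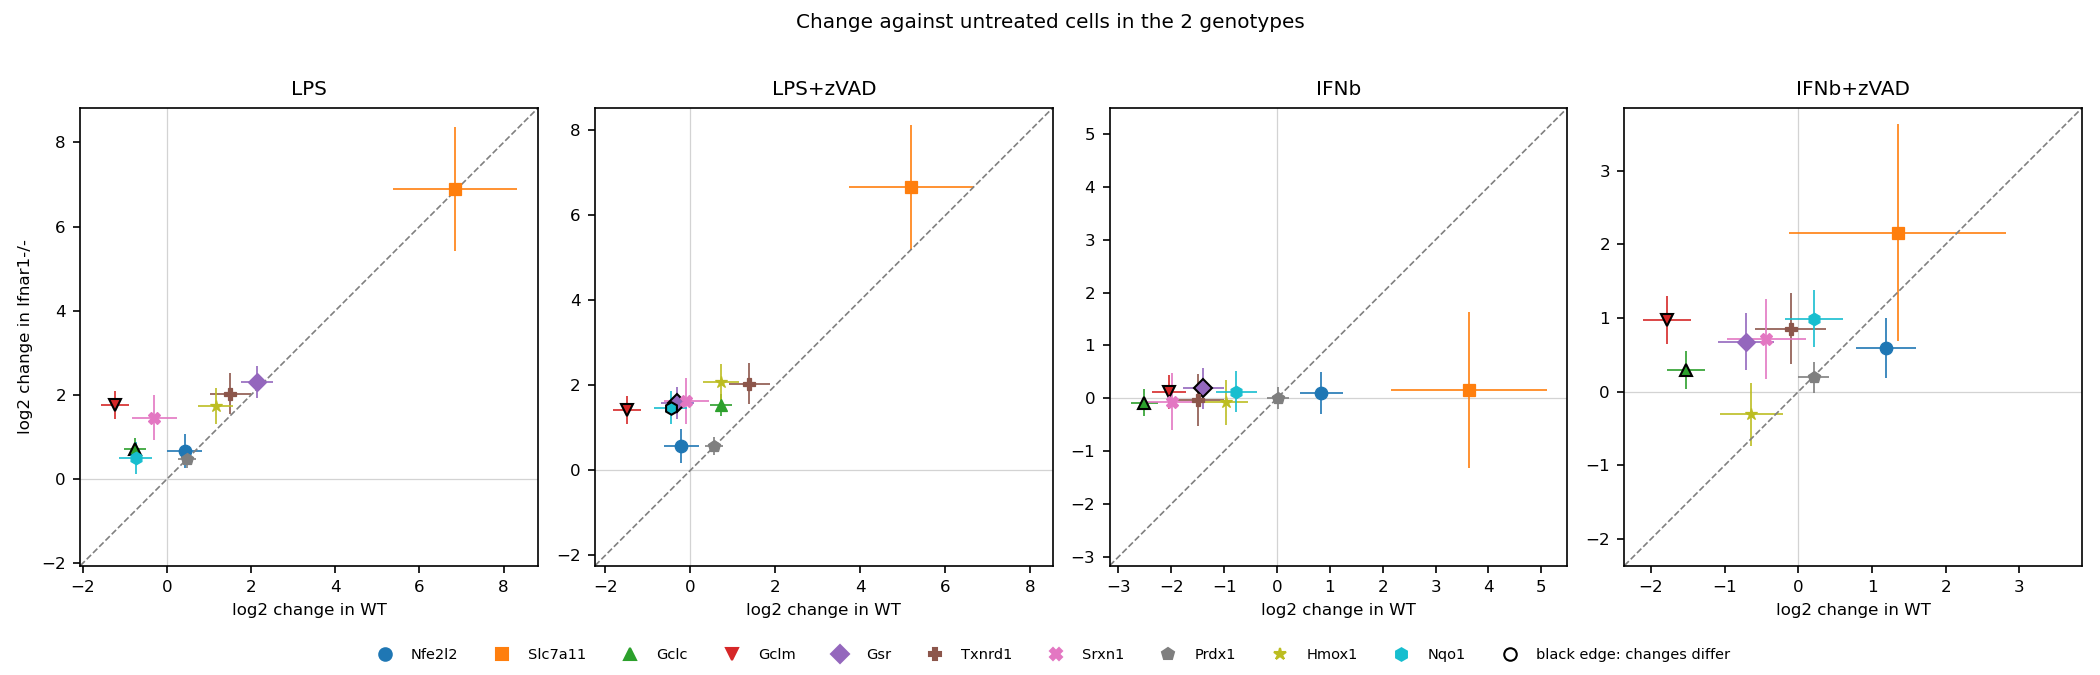
Change against untreated cells in Ifnar1-/- cells (y axis) against that in WT cells (x axis), both in log2 units, for LPS, LPS+zVAD, IFNb (IFNβ) and IFNb+zVAD, with a point per gene. Bars are standard errors, the dashed line marks equal change, and black edges mark genes whose difference was called. Gclm lies far above the line in all 4 panels, with differences of 2.99, 2.90, 2.17 and 2.76.

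Gclm was thus called for a difference between the genotypes in 6 of the 7 treatments and Gclc in 5, zVAD alone being without a call for both and LPS+zVAD for Gclc. In every one of these 11 calls the Ifnar1-/- change was the higher. Mean Gclm was between 10.06 and 11.63 in the 6 WT groups given LPS or IFNβ, and between 12.02 and 13.65 in the corresponding 6 Ifnar1-/- groups. These comparisons share the untreated arrays of each genotype.

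Before treatment 1 of 10 members was called between the genotypes, which is near the share over all genes. Prdx1 measured 16.84 and 16.89 in WT and 17.63 and 17.61 in Ifnar1-/- cells, 0.75 ± 0.21 higher (adjusted p = 0.0304), beside 8.73% of all genes called. The call ended without any 1 of the 4 arrays (adjusted p = 0.14 to 0.148), with the slide as a random block (adjusted p = 0.0738), with 75th percentile scaling (0.50, adjusted p = 0.395) and with the authors' normalized values (0.97, adjusted p = 0.421). The Prdx1 call also ended with normexp (adjusted p = 0.0803), no filter on dim probes (0.0579) and only the groups compared in the fit (0.0696). Under LPS+zVAD, 7 members were higher in Ifnar1-/- cells, beside 37.4% of all genes called and 25.7% called higher. Both Ifnar1-/- arrays lay above both WT arrays for all 10, beside 42.3% of all genes. Genotype and slide cannot be told apart here. The share of all calls that were higher was 68.8%, and 56.5% with 75th percentile scaling, with which 6 members were called, all higher.

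The members with higher levels in Ifnar1-/- cells under LPS+zVAD were Gclm (2.69 ± 0.33, adjusted p = 4.3e-06), Srxn1 (2.32 ± 0.54, adjusted p = 0.00213), Gsr (2.16 ± 0.38, adjusted p = 0.000202), Hmox1 (1.76 ± 0.43, adjusted p = 0.00289), Nqo1 (1.73 ± 0.39, adjusted p = 0.00171), Gclc (1.06 ± 0.26, adjusted p = 0.00302) and Prdx1 (0.76 ± 0.21, adjusted p = 0.00765, but -0.02 and not called with 75th percentile scaling). Srxn1 measured 15.17 and 14.56 in WT and 17.24 and 17.13 in Ifnar1-/- cells, the largest gap among the thioredoxin genes, and the call ended with the authors' normalized values (2.23, adjusted p = 0.0857). Slc7a11 (3.68, adjusted p = 0.0572), Txnrd1 (1.20, adjusted p = 0.0591) and Nfe2l2 (0.78, adjusted p = 0.143) were not called. They passed the threshold with the slide within each genotype as a fixed block (adjusted p = 0.0373, 0.0322 and 0.0337). That block takes the slides' spread out of a contrast between slides. None of them was called with the slide as a random block (adjusted p = 0.102, 0.0942 and 0.118). Slc7a11 was also called with 75th percentile scaling (adjusted p = 0.0399), normexp (0.0124) and the authors' normalized values (0.0271). Slc7a11 and Txnrd1 were called with only the groups compared in the fit (adjusted p = 0.018 and 0.0267). Without both Ifnar1-/- LPS+zVAD+Nec-1 arrays these 2 genes were called too (adjusted p = 0.0232 and 0.0149). Gsr was at 2.89 without WT LPS+zVAD replicate 1 and at 1.43 without replicate 2. Without WT LPS+zVAD replicate 2 the calls of Hmox1 (1.31, adjusted p = 0.0602) and Prdx1 (0.61, adjusted p = 0.0823) ended, and that of Prdx1 also without Ifnar1-/- LPS+zVAD replicate 2 (adjusted p = 0.0998). Hmox1 was also lost with 75th percentile scaling (1.13, adjusted p = 0.0555).

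Across the 16 groups mean Nfe2l2 spanned 1.48, from 14.48 to 15.96, the narrowest span after that of Prdx1, with Nqo1 next at 2.04. In WT cells with IFNβ the arrays measured 14.88 and 16.33, a change of 0.84 ± 0.40 (adjusted p = 0.12, 0.0234 with 75th percentile scaling and 0.0252 with the slide as a block). With IFNβ+zVAD+Nec-1 they measured 15.10 and 16.24 (0.90, adjusted p = 0.1, and 0.0186 with the slide as a block). Replicate 2 was the higher array in each of the WT groups with IFNβ, and lay above all untreated arrays. No Nfe2l2 change was called in Ifnar1-/- cells.

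Among 12 regulators of NRF2, Maff, a small MAF partner, had the largest rise under LPS and the repressors Bach2 and Bach1 the largest falls. LPS was followed by 4 higher and 2 lower regulators in WT cells (median change 0.29) and 2 and 2 in Ifnar1-/- cells (0.19), beside 41.2% and 24.8% of all genes called. IFNβ was followed by 2 and 2 in WT cells (0.18) and none in Ifnar1-/- cells (-0.01), beside 35.3% and 0%. LPS+zVAD was followed by 5 and 3 (0.49) and 5 and 2 (0.32), beside 50.9% and 28.2%. Maff rose by 3.32 ± 0.87 with LPS in WT cells and by 7.28 ± 0.87 with LPS+zVAD (adjusted p = 0.00478 and 1.38e-06), and by 3.69 and 6.16 in Ifnar1-/- cells. Mafk rose by 4.12 ± 0.24 with LPS+zVAD in WT cells and by 2.44 ± 0.24 in Ifnar1-/- cells (adjusted p = 9.59e-10 and 3.52e-06). The largest called falls with LPS+zVAD were Btrc (-2.86, adjusted p = 1.23e-05) and Gsk3b (-0.67, adjusted p = 0.0242) in WT cells. In Ifnar1-/- cells they were Bach2 (-2.84, adjusted p = 0.0264) and Btrc (-1.47, adjusted p = 0.0125). Bach1 fell by 1.38 ± 0.29 with LPS in WT cells and fell by 1.36 ± 0.29 in Ifnar1-/- cells (adjusted p = 0.000731 and 0.00181), and Bach2 changed by -4.11 and -4.76. With IFNβ in WT cells Mafk rose by 2.54 ± 0.24 (adjusted p = 2.56e-07) and Keap1, the NRF2 adaptor, by 1.45 ± 0.19 (adjusted p = 1.3e-05), while Bach2 changed by -3.60 and Mafg by -1.34.

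Across the 16 group means, after each genotype's mean was removed, the 9 targets correlated with each other to different degrees. Over their 36 pairs Pearson's r ran from 0.04 to 0.86 with a median of 0.65, and 26 pairs were over 0.5. Txnrd1 was most like Prdx1 and Srxn1 (0.86 each), Hmox1 most like Txnrd1 and Gsr (0.85 each), and Gclc and Gclm correlated at 0.72. Nfe2l2 correlated with its targets at -0.36 (Gclc) to 0.44 (Nqo1). Over the 8 Ifnar1-/- group means its r was positive with all 9 targets, from 0.41 (Gclc) to 0.89 (Txnrd1 and Prdx1). Over the 8 WT group means it ran from -0.64 (Gclc) to 0.34 (Nqo1) and was below 0 with the other 8 targets. For genes outside the members the genotype means were not removed. Their r over the 16 group means thus includes the offset between genotypes, unlike the values above for pairs of members. The 3 genes most like Slc7a11 of 16027 were Tfec, Cnih4 and Dnajc1 (0.93 each), and those most like Nqo1 were Btd (0.82), Panx1 and Tbcel (0.80 each). Those most like Nfe2l2 were Il21r, Gpr132 and Slamf6 (0.87 each). The points share arrays, slides and untreated controls, so these values are descriptions.

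**Figure D5:**
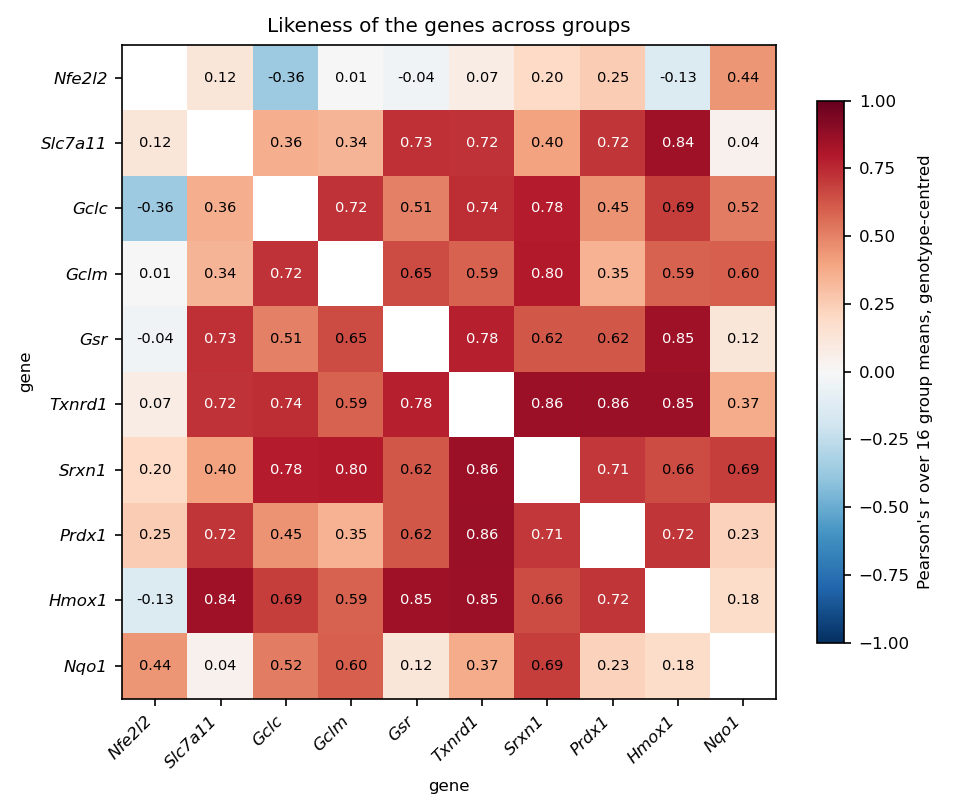
Pearson's r between the 10 genes over the 16 group means with each genotype's mean removed. The 9 targets correlate between 0.04 and 0.86, and the Nfe2l2 row lies between -0.36 and 0.44, a range that joins values of 0.41 to 0.89 within Ifnar1-/- and of -0.64 to 0.34 within WT cells.

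Hmox1, Gsr and Prdx1 have a second probe that passed the filter, and none of its 93 tested changes was called against the sign of a call on the brightest probe. Sizes differed. The second Hmox1 probe was called in WT cells with LPS+zVAD (1.30, adjusted p = 0.0142), where the brightest was at 0.72, and for Nec-1 added to LPS+zVAD in Ifnar1-/- cells (-1.30, adjusted p = 0.0377), where the brightest was at -0.85. For that Nec-1 step the brightest probe changed by 0.08 on replicate 1 and by -1.79 on the array labelled replicate 2. Without that array the brightest probe was at 0.004, and the second probe was not tested without it. The second Gsr probe was not called for IFNβ in WT cells (-0.97, adjusted p = 0.132), nor for the difference between genotypes with IFNβ (1.15, adjusted p = 0.277) or LPS+zVAD (1.63, adjusted p = 0.118). The second Prdx1 probe gave the larger difference between untreated genotypes (1.83, adjusted p = 0.0203) and between genotypes under LPS+zVAD (2.25, adjusted p = 0.00101). It was also called with LPS in Ifnar1-/- cells (1.39, adjusted p = 0.0397), and was not with LPS+zVAD in WT cells (1.06, adjusted p = 0.072).

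The other genes of these pathways, listed with earlier results of the data known, moved in both directions. Of 17 glutathione genes tested, 4 were higher and 7 lower with LPS in WT cells (median change -0.50), and 6 higher and 7 lower in Ifnar1-/- cells (0.34), beside 41.2% and 24.8% of all genes called. Ggct, which cleaves gamma-glutamyl peptides, rose by 3.32 ± 0.41 in WT cells (adjusted p = 4.94e-06), and Mgst1, a microsomal glutathione transferase, fell by 1.60 ± 0.25 (adjusted p = 4.76e-05). With LPS+zVAD 4 were higher and 3 lower in WT cells (-0.04), and 4 and 6 in Ifnar1-/- cells (-0.17), beside 50.9% and 28.2%. Gpx4, the glutathione peroxidase that reduces lipid peroxides, fell by 1.41 ± 0.14 in WT cells with LPS+zVAD (adjusted p = 1.83e-07).

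Of 11 other thioredoxin and peroxiredoxin genes, 0 were higher and 6 lower in WT cells with LPS+zVAD (median change -0.82), and 3 higher and 4 lower in Ifnar1-/- cells (-0.30), beside 50.9% and 28.2% of all genes called. Txnip, the thioredoxin inhibitor, fell by 4.22 ± 0.49 in WT cells with LPS+zVAD (adjusted p = 1.08e-06) and fell by 2.31 ± 0.49 in Ifnar1-/- cells (adjusted p = 0.0019), and Sesn1, a sestrin, changed by -5.55 and -3.60. Of 12 haem, iron and quinone genes tested, 0 were higher and 6 lower with IFNβ in WT cells (median change -1.04), against 0 called in Ifnar1-/- cells (-0.02), beside 35.3% and 0% of all genes. Cbr3, a carbonyl reductase, fell by 2.28 ± 0.15 with IFNβ (adjusted p = 3.05e-09) and fell by 3.12 ± 0.15 with LPS in WT cells (adjusted p = 1.88e-10). Of 9 genes listed for NADPH supply, 1 was higher and 7 lower with IFNβ in WT cells (median change -0.76), beside the same 35.3%. Mthfd2, a mitochondrial folate enzyme, rose by 3.81 ± 0.69 (adjusted p = 0.000286), and Idh1, a cytosolic source of NADPH, fell by 2.87 ± 0.49 (adjusted p = 0.000151). With IFNβ the difference between the genotypes' changes was called, higher in Ifnar1-/- cells, for 4 glutathione, 2 thioredoxin, 4 haem, iron and quinone and 2 NADPH genes, and lower for 3, 0, 0 and 1, beside 18.8% of all genes.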

How the data were processed

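Deposited Agilent scanner files of 32 arrays gave intensity values (the processed signal, already background-subtracted by the authors' Feature Extraction 11.5.1.1), and the authors' table of normalized log2 values was used as an alternative. Control spots and outlier spots were left out, repeat spots of a probe were averaged, and log2 signals were quantile-normalized between arrays. Probes well above background on at least 50% of the arrays were kept (21465 probes, 16037 genes), and a gene was read from its brightest probe. limma 3.58.1 in R 4.3.3 (lmFit and eBayes) fitted 16 group means to all 32 arrays, with 16 residual degrees of freedom, and p-values were adjusted by Benjamini-Hochberg over all genes. Contrasts were each treatment against untreated cells, zVAD or Nec-1 added, the difference of changes between genotypes, and genotypes within untreated and LPS+zVAD cells. The script was tested on simulated data.

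Groups came from the sample labels. The members and gene lists were chosen with earlier results of these data known. All 10 members are named, and from each list some of the called genes among the 2 largest rises and 2 largest falls of a comparison. The genes most like Hmox1 are not reported here. The number of arrays, 2 a group, limits the precision. Arrays with the same number in a genotype share a slide and deviated together (r over 0.1 for 28 of 28 pairs in WT, lowest 0.319, and for 28 of 28 in Ifnar1-/-, lowest 0.17), so the slide as a block was tried, beside 75th percentile scaling, normexp background correction (offset 50), other filters, the mean of a gene's probes, smaller fits and leaving out each array. Promoters were searched in RefSeq sequence of GRCm38.p6. Figures were drawn with Python 3.11.15 and matplotlib 3.10.9.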

Additional observations from a re-analysis of the deposited data

Results flagged for a closer look

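Changes with treatment that differed between the genotypes by the test of the difference itself (change in Ifnar1-/- minus change in WT, limma, adjusted p below 0.05) are listed here with their values on the log2 scale. Gclm, the modifier subunit of glutamate-cysteine ligase, differed by 2.99 with LPS, 2.17 with IFNβ, 2.90 with LPS+zVAD, 2.76 with IFNβ+zVAD, 1.82 with LPS+zVAD+Nec-1 and 2.38 with IFNβ+zVAD+Nec-1. Gclc, the catalytic subunit, differed by 1.49 with LPS, 2.43 with IFNβ, 1.82 with IFNβ+zVAD, 1.44 with LPS+zVAD+Nec-1 and 1.58 with IFNβ+zVAD+Nec-1. Gsr differed by 1.58 with IFNβ and 1.89 with LPS+zVAD, Nqo1 by 1.94 with LPS+zVAD, and Prdx1 by -0.88 with IFNβ+zVAD+Nec-1. In the last of these the change was the higher in WT cells, and in the other 14 it was the higher in Ifnar1-/- cells. The values with LPS+zVAD+Nec-1 include the Ifnar1-/- array labelled replicate 2 that resembled the IFNβ+zVAD+Nec-1 arrays, and without it they were 2.45 for Gclm and 1.79 for Gclc.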

How the results depend on the processing

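Of 71 calls of members, 39 held with each array left out in turn and 32 ended in at least 1 such fit, and 2 arrays a group leave changes near the threshold undecided. By leaving out single arrays, the calls against untreated cells ran from 15 to 30 in WT (26 with all arrays) and from 11 to 23 in Ifnar1-/- cells (17), those of zVAD added from 2 to 3 (2), of Nec-1 added from 2 to 10 (3), of differences between genotypes' changes from 8 to 21 (15) and of genotypes from 6 to 10 (8). The lowest counts in WT cells and for the differences came without WT untreated replicate 1, and the highest without an Ifnar1-/- LPS+zVAD+Nec-1 array. With only the groups compared in the fit, calls of Nec-1 added numbered 0, and of all 310 pairs of gene and comparison 17 gained and 17 lost a call. Scaling to the 75th percentile gained 10 and lost 10, and turned 1 called value, Prdx1 in Ifnar1-/- minus WT under LPS+zVAD, to -0.0175. It moved the median of all genes from -0.15 to 0.12 for LPS+zVAD in WT and from 0.13 to -0.13 for that genotype comparison. Normexp gained 3 and lost 3, no filter gained 0 and lost 9 with more genes tested, a 75% filter changed none, the mean of probes gained 1 and lost 3, and the authors' values gained 1 and lost 8. The slide as a replicate block gained 12, given with the results, and changed no other call, and the counts were then 29 in WT and 19 in Ifnar1-/- cells. Without both Ifnar1-/- LPS+zVAD+Nec-1 arrays 14 of 280 pairs gained a call and 0 lost one. Against untreated WT cells they were Hmox1 and Slc7a11 with IFNβ, and Prdx1 with LPS and with IFNβ+zVAD+Nec-1. In Ifnar1-/- cells they were Prdx1 and Srxn1 with LPS, Gclc with zVAD added to LPS, and Prdx1 with Nec-1 added to IFNβ+zVAD. Differences between the genotypes' changes were gained for Srxn1 with IFNβ, Gsr with IFNβ+zVAD and IFNβ+zVAD+Nec-1, and Hmox1 with LPS+zVAD. Slc7a11 and Txnrd1 were gained between genotypes under LPS+zVAD.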

Other observations

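Targets of ATF4, a transcription factor of the amino acid and stress response that also drives Slc7a11, were read beside the NRF2 targets. The list of 12 genes includes Atf4 itself. Of the 12, 6 were higher and 0 lower with LPS+zVAD in WT cells (median change 1.53, beside -0.15 over all genes). In Ifnar1-/- cells 5 were higher and 0 lower (1.52, beside -0.09). Of all genes, 50.9% and 28.2% were called in these comparisons. With LPS alone 2 were higher and 1 lower in WT cells (0.84), and 1 and 0 in Ifnar1-/- cells (0.36), beside 41.2% and 24.8% of all genes. Asns, which makes asparagine, rose by 4.56 ± 0.85 with LPS+zVAD in WT cells (adjusted p = 0.000175) and by 4.18 ± 0.85 in Ifnar1-/- cells (adjusted p = 0.00132). Chac1, which breaks down glutathione and is in both the ATF4 and the glutathione list, rose by 7.18 ± 1.90 (adjusted p = 0.00383) and by 6.23 ± 1.90 (adjusted p = 0.0196). With IFNβ in WT cells 4 were higher and 0 lower (0.96), and in Ifnar1-/- cells 0 were called (-0.04), beside 35.3% and 0% of all genes.

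Of 10 superoxide and peroxide enzymes tested that are not set by NRF2 alone, 1 was higher and 5 lower with LPS+zVAD in WT cells (median change -0.43), and 2 and 2 in Ifnar1-/- cells (0.09), beside 50.9% and 28.2% of all genes called. With LPS alone 1 was higher and 3 lower in WT cells (-0.06), and 4 and 1 in Ifnar1-/- cells (0.25), beside 41.2% and 24.8%.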
